A study of Mus musculus with 18 samples.

Results

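The 10 genes described here encode the constant regions of immunoglobulins and the chain that joins them into polymers. They are Ighm, Ighd, Ighg3, Ighg1, Ighg2b, Ighg2c and Igha for the heavy chains, Igkc and Iglc2 for the light chains, and Jchain. They were taken by symbol, and they were picked with their measured values in these samples known, so their levels and differences are given as a description, without a test. All 10 were found among the 19780 genes of the LSK table and among the 18428 genes of the CMP table, and all 10 passed the filter on low values in each of the 5 comparisons. RNA was sequenced from cells that had been sorted out of mouse bone marrow, namely LSK cells, gated as Sca-1+ and c-Kit+ without CD11b, Gr-1, Ter119, B220 or CD16/32 at the surface, the fraction that holds the haematopoietic stem and early progenitor cells, and common myeloid progenitors (CMP). The mice were female NZBW/F1, the offspring of New Zealand Black and New Zealand White parents, which develop lupus without any agent or engineered allele, and female C57BL/6 as controls. NZBW/F1 mice were studied at 12 weeks, before disease (F1-P), and at 28 to 36 weeks with proteinuria (F1-L), and C57BL/6 mice at the matching ages (B6-Y and B6-O). LSK cells came from all 4 groups and CMP from F1-P and F1-L only, with 3 samples in each of the 6 groups, and C57BL/6 CMP were not analysed here. The sources used here do not say whether an LSK sample was 1 mouse or a pool, and a legend of the study gives a number per replicate for CMP without saying of what, so spreads and p-values cover the variation between these samples only. Each LSK sample enters 2 comparisons, so the LSK comparisons share samples.

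A B cell first makes IgM, whose heavy chain is encoded by Ighm, and can make IgD from the same transcript by splicing to Ighd. Class switch recombination then deletes Ighm and the other DNA that lies before a downstream constant gene, so that the same variable region is carried by IgG, IgE or IgA. Each heavy chain pairs with a kappa or a lambda light chain, and in plasma cells, the antibody-secreting end stage of the lineage, the J chain links IgM pentamers and IgA dimers before secretion.

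The C57BL/6 genome assembly GRCm38 to which the reads had been aligned holds the heavy-chain constant genes on the minus strand of chromosome 12, in the order Ighm (113418558 to 113422730), Ighd (113406604 to 113416324), Ighg3 (113356224 to 113361232), Ighg1 (113325240 to 113330523), Ighg2b (113302965 to 113307933), Ighg2c (113285325 to 113288932), Ighe (113269260 to 113273248) and Igha (113254830 to 113260236). Igkc lies on the plus strand of chromosome 6 (70726435 to 70726966), Iglc2 on the minus strand of chromosome 16 (19198396 to 19200351) and Jchain on the minus strand of chromosome 5 (88519809 to 88527891). The sequences below are from the GENCODE M21 transcripts on GRCm38, read 5′ to 3′ on the strand of the gene. For Ighm, Igkc and the starts of the IgG genes they are the first 60 bases of the first constant exon. Those of Ighm (chr12:113422671-113422730) and Igkc (chr6:70726435-70726494) are shown because these genes held most of the reads of the 10 genes in every library.
Ighm: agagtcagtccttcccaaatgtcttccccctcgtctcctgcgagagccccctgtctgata
Igkc: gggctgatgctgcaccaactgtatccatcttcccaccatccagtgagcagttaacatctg

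The IgG genes are close copies of each other, so their starts are shown to let a reader see what tells the subclasses apart, for Ighg2b (chr12:113307874-113307933), Ighg2c (chr12:113288873-113288932), Ighg1 (chr12:113330464-113330523) and Ighg3 (chr12:113361173-113361232). Capitals mark the bases that differ from Ighg2b at the same position, 5 in Ighg2c, 13 in Ighg1 and 13 in Ighg3.
Ighg2b: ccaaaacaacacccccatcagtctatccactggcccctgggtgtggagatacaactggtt
Ighg2c: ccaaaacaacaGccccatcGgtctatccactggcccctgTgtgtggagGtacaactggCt
Ighg1: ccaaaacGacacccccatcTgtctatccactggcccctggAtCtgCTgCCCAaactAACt
Ighg3: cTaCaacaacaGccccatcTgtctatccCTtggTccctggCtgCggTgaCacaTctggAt

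The longest run of bases shared by Ighg2b and Ighg2c was 78, in the third exon (chr12:113306859-113306956 and chr12:113287859-113287956 with 10 bases on each side), and it is given in capitals because it exceeds the 75-base read length.
Ighg2b: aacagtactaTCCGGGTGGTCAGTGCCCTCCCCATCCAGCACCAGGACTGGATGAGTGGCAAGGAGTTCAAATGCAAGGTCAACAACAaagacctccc
Ighg2c: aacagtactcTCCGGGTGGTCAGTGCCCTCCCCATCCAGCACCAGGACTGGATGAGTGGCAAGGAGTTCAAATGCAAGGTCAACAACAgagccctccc

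Of the 1251 different 75-base words in the Ighg2c transcripts, 6 (0.480%) also occurred in Ighg2b, and 14 of the 2438 words of Ighg3 (0.574%) did so. Ighm, Ighd, Ighg1, Igha, Igkc and Jchain shared no word of that length with another of these genes. The lambda constant genes were the other close copies, with 5 of 537 words of Iglc2 (0.931%) also found in Iglc3. Stretches of 60 bases from just inside their starts are shown for Iglc2 (chr16:19198790-19198849), Iglc3 (chr16:19065619-19065678) and Iglc1 (chr16:19062009-19062068). They are aligned to the best offset, with capitals for the bases that differ from Iglc2, 4 in Iglc3 and 13 in Iglc1.
Iglc2: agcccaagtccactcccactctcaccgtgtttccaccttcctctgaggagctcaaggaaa
Iglc3: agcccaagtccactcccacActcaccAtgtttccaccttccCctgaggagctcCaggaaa
Iglc1: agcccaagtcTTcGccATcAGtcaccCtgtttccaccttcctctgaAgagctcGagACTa
GRCm38 is a C57BL/6 genome, and C57BL/6 carries Ighg2c at the place where many other strains carry Ighg2a. What this did to the IgG reads of NZBW/F1 samples was not tested.

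Depth was similar across libraries, with 23772252 to 28493747 reads on genes in LSK libraries and 20001328 to 24761060 in CMP libraries. The 10 genes took 15.3% to 29.3% of the reads of an F1-P LSK library and 13.1% to 20.1% of an F1-L one. In C57BL/6 they took 0.733% to 2.25% in B6-Y and 0.235% to 3.89% in B6-O, and in CMP no more than 0.211%. B6-O replicate 3 stood apart from the other B6-O libraries with 3.89% against 0.391% and 0.235%, F1-P replicate 1 (15.3%) lay within the F1-L range, CMP F1-P replicate 1 (0.0353%) within that of CMP F1-L, and B6-Y replicate 1 had 0.733% against 2.18% and 2.25%. Where single libraries moved a member's log2 difference given below by more than 1.5-fold, the value without the library that moved it furthest down, up or both ways is given beside it. Levels are the deposited CPM, counts normalised to a scaled library size (scaled CPM below), and the LSK and CMP tables were scaled separately.

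Ighm, the heavy chain of IgM, had the highest scaled CPM of the 10 genes in all 18 libraries, although per kb of exon Igkc lay above it in LSK. In LSK its scaled CPM was 105417, 263339 and 230281 in F1-P and 84614, 121346 and 147457 in F1-L. In B6-Y it was 3842, 11494 and 11358 and in B6-O 1791, 1004 and 17945. Every NZBW/F1 library lay above every C57BL/6 library, while F1-P overlapped F1-L and B6-Y overlapped B6-O. The mean log2 level was 4.55 higher in F1-P than in B6-Y (SE 0.67, n = 3 each), a 23.4-fold difference, and 5.17 higher in F1-L than in B6-O (SE 1.29), or 6.42 without B6-O replicate 3 and 4.34 without B6-O replicate 2. These standard errors come from the spread of the samples in both groups on the log2(scaled CPM + 1) scale. F1-L lay 0.69 below F1-P (SE 0.47). Because the RNA is from sorted bulk cells, more cells of a type and more RNA per cell cannot be told apart.

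**Figure D1:**
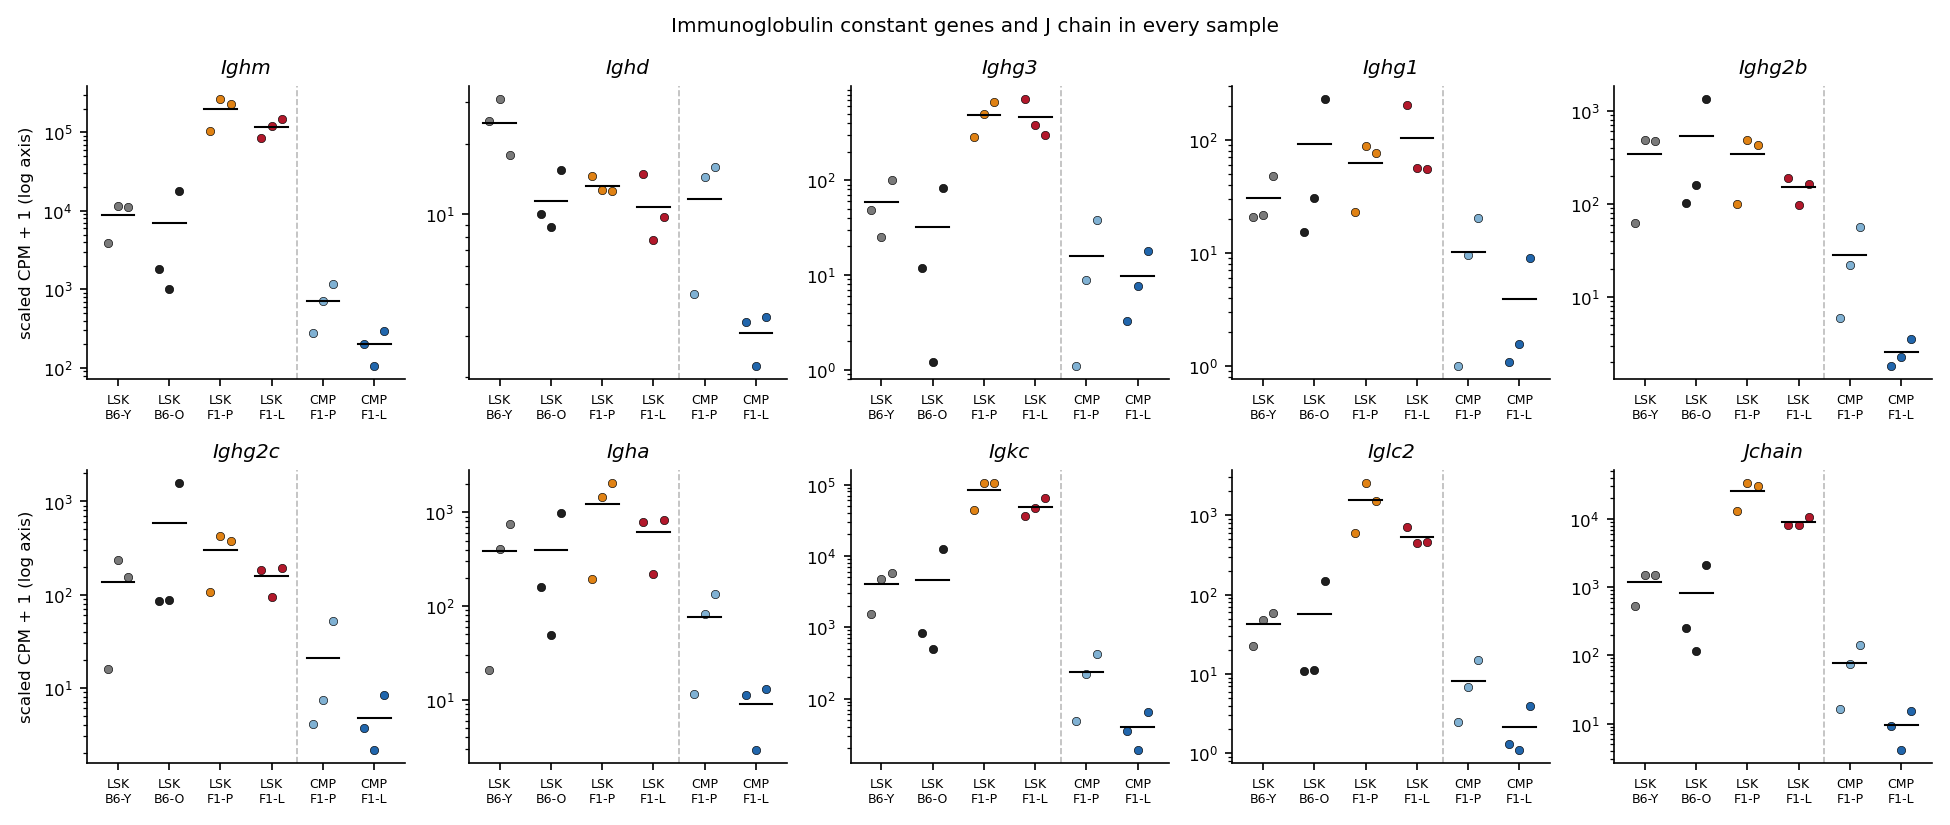
Scaled CPM + 1 on a log axis for the 10 genes in each of the 18 samples, grouped by cell type and mouse group, with 1 point per sample and a bar at the group mean; the dashed line separates the LSK and CMP tables, which were scaled separately. Ighm, Igkc, Iglc2, Jchain and Ighg3 lie higher in every NZBW/F1 LSK sample than in every C57BL/6 LSK sample, and Ighd does not.

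Igkc, the only kappa constant gene, followed Ighm. Its scaled CPM in LSK was 43644, 103706 and 103934 in F1-P and 36060, 47116 and 63935 in F1-L, against 1523, 4717 and 5837 in B6-Y and 839.5, 495 and 12642 in B6-O. Again no NZBW/F1 library fell within the C57BL/6 range. The log2 difference was 4.48 for F1-P against B6-Y (SE 0.73), or 3.89 without B6-Y replicate 1. For F1-L against B6-O it was 4.78 (SE 1.47), or 6.21 without B6-O replicate 3 and 3.87 without B6-O replicate 2. Across the 6 NZBW/F1 LSK libraries the Pearson correlation of log2 levels of Ighm and Igkc was 0.99, and across the 6 C57BL/6 libraries it was 0.99, over points that share library and depth.

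Iglc2, a lambda constant gene, showed the widest gap between the strains at 12 weeks. It had a scaled CPM of 598, 2523 and 1497 in F1-P and 703, 440 and 457 in F1-L. In B6-Y it had 21.3, 47.5 and 57.6 and in B6-O 9.99, 10.2 and 146. The groups of the strains did not overlap, and the log2 difference was 5.04 for F1-P against B6-Y (SE 0.74) and 4.31 for F1-L against B6-O (SE 1.26). The latter was 5.56 without B6-O replicate 3 and 3.68 and 3.70 without B6-O replicates 1 and 2.

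Jchain was the only member whose F1-P and F1-L ranges in LSK did not meet, as was so for 17.7% of the 14332 genes tested. In the test of all genes given below it did not pass by limma. By the likelihood ratio test of edgeR it did, where 4.60% of genes passed. Its scaled CPM was 12939, 33325 and 30254 in F1-P and 8286, 8063 and 10851 in F1-L, so every F1-L library lay below every F1-P library. The log2 difference was −1.39 (SE 0.45), and −1.82 without F1-P replicate 1, the lowest of the F1-P libraries. B6-Y had 525, 1501 and 1489 and B6-O 247, 116 and 2098, all below NZBW/F1. B6-O overlapped B6-Y, with a log2 difference of −1.42 (SE 1.34), or −2.63 without B6-O replicate 3 and −0.55 without B6-O replicate 2. F1-L mice were also older than F1-P mice, so age and disease cannot be told apart in that comparison. The log2 difference between strains was 4.48 at 12 weeks (SE 0.66) and 4.51 at 28 to 36 weeks (SE 1.26), where it was 5.72 without B6-O replicate 3 and 3.64 without B6-O replicate 2.

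Ighd, the heavy chain of IgD, which naive B cells carry beside IgM, did not follow Ighm. Its scaled CPM in LSK was 23.9, 29.9 and 16.9 in B6-Y, 9.02, 7.77 and 14.5 in B6-O, 13.5, 11.7 and 11.5 in F1-P and 13.8, 6.76 and 8.76 in F1-L. All B6-Y libraries lay above all B6-O and all F1-P libraries, with log2 differences of −1.11 for B6-O against B6-Y (SE 0.34) and −0.86 for F1-P against B6-Y (SE 0.24). F1-L and B6-O overlapped, with a log2 difference of −0.09 (SE 0.37). The reads behind these values were 170 to 887 per LSK library.

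Ighg3, the heavy chain of the IgG3 subclass, was the only IgG gene whose NZBW/F1 and C57BL/6 LSK ranges did not meet. It had a scaled CPM of 288, 504 and 661 in F1-P and 712, 379 and 302 in F1-L. B6-Y had 47.7, 24.4 and 100.3, and B6-O had 11.0, 0.221 and 82.1. The log2 difference was 3.20 for F1-P against B6-Y (SE 0.68) and 5.35 for F1-L against B6-O (SE 1.80), the latter with 7 reads in B6-O replicate 2. It was 6.83 without B6-O replicate 3 and 3.78 without B6-O replicate 2. F1-P and F1-L overlapped, with a log2 difference of −0.08 (SE 0.51).

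Ighg1, Ighg2b, Ighg2c and Igha, the heavy chains of IgG1, IgG2b, IgG2c and IgA, overlapped between the strains. Ighg2b had a scaled CPM of 98.2, 488 and 432 in F1-P and 61.1, 484 and 470.1 in B6-Y, a log2 difference of 0.19 (SE 1.23), or −0.79 without B6-Y replicate 1 and 0.93 without F1-P replicate 1. It had 189, 95.3 and 162 in F1-L and 100.2, 159 and 1325 in B6-O, a log2 difference of −0.95 (SE 1.18), or 0.18 without B6-O replicate 3 and −1.68 without B6-O replicate 1. The highest Ighg2b and Ighg2c levels of the 12 LSK libraries were those of B6-O replicate 3.

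Ighg2c had 106, 429 and 371 in F1-P, 183, 92.7 and 191 in F1-L, 14.8, 231 and 155 in B6-Y and 84.2, 87.4 and 1566 in B6-O. Ighg1 ranged from 22.0 to 87.9 in F1-P, 53.8 to 203 in F1-L, 19.8 to 47.4 in B6-Y and 14.4 to 228 in B6-O. Igha had 196, 1450.5 and 2041 in F1-P, 779, 219 and 832 in F1-L, 19.8, 402 and 745 in B6-Y and 159, 48.3 and 989.6 in B6-O. For these genes the spread within a group was as wide as the distance between groups, and the largest difference between strains, 2.18 for Igha in F1-P against B6-Y, had an SE of 1.91 and ran from 0.61 without B6-Y replicate 1 to 3.23 without F1-P replicate 1.

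Read against all genes tested with the thresholds of the study, an adjusted p up to 0.05 with a change of more than 1.5-fold, limma placed 5 of the 10 members past them in F1-P against B6-Y, where 16.2% of 14380 genes passed. Those were Ighg3, Igkc, Iglc2 and Jchain with higher and Ighd with lower values in F1-P. In F1-L against B6-O, where 11.6% of 14381 genes passed, it placed 3 past them, Ighg3, Iglc2 and Jchain. Without a trend of the variance on the level, a setting chosen after seeing the data, limma placed Ighm, Igkc, Iglc2 and Jchain past them there, without Ighg3, and Ighm beside the 5 in F1-P against B6-Y. No member passed in F1-L against F1-P (0.0279% of genes), B6-O against B6-Y (0% of genes) or CMP F1-L against F1-P (0.00774%). The likelihood ratio test of edgeR, which the study used, placed 6, 5, 1, 0 and 5 members past the same thresholds in those 5 comparisons, in that order, where 19.1%, 14.6%, 4.60%, 0.821% and 2.46% of genes passed. The ranges of the groups did not meet for 6, 5, 1, 1 and 3 members, and for 35.5%, 37.4%, 17.7%, 11.3% and 16.0% of all genes. As the members were chosen on these values, nothing is read from their counts.

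Isotype balance was compared within each library as the share of each heavy-chain constant gene in the summed reads per kb of annotated exon, which does not depend on the scaling of the tables. In NZBW/F1 LSK nearly all of the signal was IgM: Ighm held 99.4%, 99.1% and 98.8% in F1-P and 98.1%, 99.4% and 99.2% in F1-L. In B6-Y it held 96.2%, 91.9% and 90.4%, and in B6-O 84.4%, 77.0% and 81.4%. In the Ighm share the strains did not overlap, nor did B6-Y and B6-O, whereas F1-P and F1-L did. The Ighg1 share was 0.0151% to 0.0241% in F1-P and 0.0263% to 0.171% in F1-L, without overlap. The shares of the other heavy-chain members overlapped between F1-P and F1-L. For libraries of LSK, where the share rested on 42344 to 4813575 heavy-chain reads, the exact (Clopper-Pearson) 95% intervals of the read shares were at most 0.826 percentage points wide, and these cover counting error only.

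**Figure D2:**
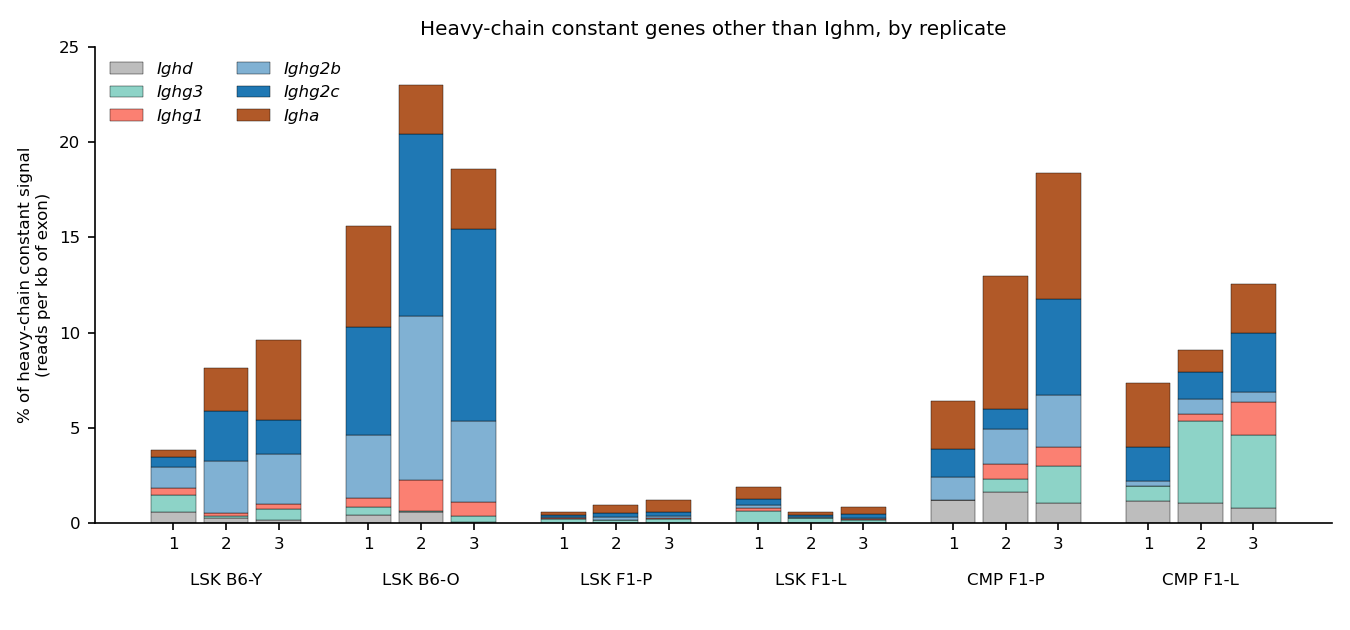
Stacked bars give, for each library by group and replicate number, the share of heavy-chain constant signal (reads per kb of annotated exon) held by the genes other than Ighm; the rest of each bar up to 100% is Ighm, and Ighe is too rare to draw. The bars reach 15.2% to 22.4% for the switched genes in B6-O and stay under 2% in all 6 NZBW/F1 LSK libraries.

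Ighg3, Ighg1, Ighg2b, Ighg2c, Ighe and Igha encode the classes made after switching and are called the switched genes here. Together they held 18.7% ± 3.64 of the heavy-chain signal in B6-O (SD, n = 3) and 6.86% ± 3.25 in B6-Y. They held 0.893% ± 0.328 in F1-P and 1.09% ± 0.702 in F1-L. Reads were counted by gene, so transcripts with and without a variable region cannot be told apart. The switched share of B6-O was highest in replicate 2 (22.4%), the library with the least immunoglobulin, and was 18.5% in replicate 3, which had the most. The mean Ighm share of B6-O was 80.9% with replicate 3 and 80.7% without it.

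Per kb of annotated exon, Ighg2c and Ighg2b made up most of the switched signal of B6-O. Ighg2c alone held 5.64%, 9.53% and 10.1% of the heavy-chain signal there, against 0.529%, 2.63% and 1.76% in B6-Y, 0.199% ± 0.0499 in F1-P and 0.198% ± 0.0981 in F1-L. Ighg2b held 3.33%, 8.60% and 4.23% in B6-O and 1.08%, 2.72% and 2.64% in B6-Y. Both genes had no overlap between B6-O and B6-Y in their shares, although their levels overlapped. The same held for Ighg1, with 0.495% to 1.67% in B6-O and 0.121% to 0.361% in B6-Y. The order of the genes depended on the length used, 1326 bases of exon for Ighg2c and 2678 for Ighg2b. By reads without length, Igha led in B6-O replicate 1 with 7.35%, against 4.62% for Ighg2b and 3.88% for Ighg2c. Ighg2b also exceeded Ighg2c in B6-O replicate 2, at 11.9% and 6.54%, and not in replicate 3, at 5.98% and 7.07%.

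Among the switched genes alone the make-up also differed between strains, as counted on the IgG genes of the C57BL/6 reference. Ighg3 was 15.6% to 41.9% of the switched signal in the 6 NZBW/F1 LSK libraries. In C57BL/6 it was 27.9% in B6-Y replicate 1, which had 5270 switched reads, and 0.0567% to 6.34% in the other 5. Ighg2b went the other way, with 8.19% to 14.2% in NZBW/F1 and 21.9% to 38.3% in C57BL/6 LSK. Within NZBW/F1, Ighg2b was 10.8% to 14.2% in F1-P and 8.19% to 9.89% in F1-L, without overlap. Ighg1 was 1.94% to 2.71% in F1-P and 3.15% to 9.06% in F1-L, also without overlap. Within C57BL/6, Ighg2c was 16.4% to 33.3% in B6-Y and 37.2% to 54.5% in B6-O, without overlap. Igha ranged from 10.9% to 51.1% across the 12 LSK libraries, with all groups overlapping.

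Ighe, the heavy chain of IgE and not among the 10, had 2 to 46 reads per LSK library, at most 0.0173% of the heavy-chain signal of a library. Ighe was not used in CMP, where the shares are those among the other heavy-chain genes.

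Ighd was set against Ighm in the same way, per kb. In C57BL/6 LSK there were 1.48 to 6.17 of Ighd per 1000 of Ighm in B6-Y and 0.801 to 7.68 in B6-O. In NZBW/F1 LSK there were 0.0440 to 0.127 in F1-P and 0.0553 to 0.162 in F1-L, below every C57BL/6 library. In CMP the ratio was 12.7 to 18.6 in F1-P and 8.92 to 12.2 in F1-L, above every LSK library.

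The J chain was set against Ighm and Igha, the heavy chains of the classes it joins. Per 100 of their summed signal, Jchain was 9.19, 9.45 and 9.78 in F1-P and 7.29, 4.97 and 5.49 in F1-L. The values of C57BL/6 LSK, 10.2, 9.55 and 9.39 in B6-Y and 9.72, 8.37 and 8.43 in B6-O, ran from below to above those of F1-P. Every F1-L library lay below all 9 other LSK libraries. In CMP too the F1-L values, 2.95, 2.19 and 3.51, lay below the F1-P values, 4.08, 7.14 and 8.40. All 3 replicates of F1-P, replicate 1 included, stayed between 9.19 and 9.78, although their Jchain levels differed.

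**Figure D3:**
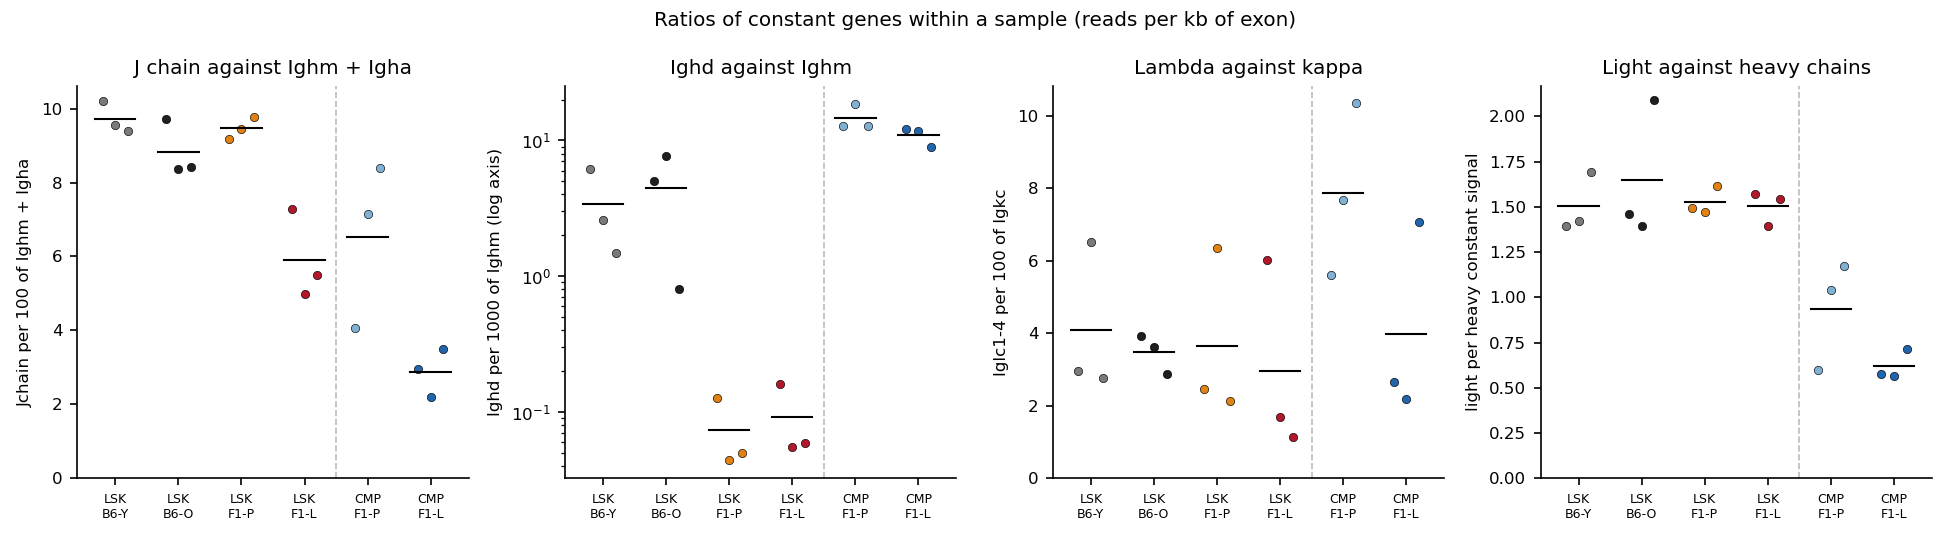
Ratios within each sample from reads per kb of annotated exon, with 1 point per sample and a bar at the group mean: Jchain per 100 of Ighm plus Igha, Ighd per 1000 of Ighm (log axis), Iglc1 to Iglc4 per 100 of Igkc, and light per heavy constant signal. F1-L lies below F1-P for the J chain in LSK (4.97 to 7.29 against 9.19 to 9.78) and in CMP, and Ighd per Ighm is lowest in NZBW/F1 LSK.

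The light chains were mostly kappa in every group. Iglc1 to Iglc4 summed to 2.12 to 6.34 per 100 of Igkc in F1-P, 1.13 to 6.03 in F1-L, 2.76 to 6.52 in B6-Y and 2.87 to 3.93 in B6-O, all overlapping. In CMP the ratio was 5.60 to 10.4 in F1-P and 2.18 to 7.08 in F1-L. Light-chain constant signal per heavy-chain signal was 1.39 to 1.61 in NZBW/F1 LSK, 1.39 to 1.69 in B6-Y and 1.39 to 2.09 in B6-O, with the 2.09 in replicate 3. In CMP it was lower, 0.599 to 1.17 in F1-P and 0.566 to 0.713 in F1-L, so that every CMP library lay below every LSK library.

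Reads of the variable genes were set against those of the constant genes. The 135 Ighv genes of the table held 0.126 to 0.210 reads per heavy-chain constant read in the 12 LSK libraries. The 112 Igkv genes held 0.720 to 0.868 per Igkc read in 11 of them and 0.562 in B6-O replicate 3. In CMP, over the 83 Ighv and 75 Igkv genes of that table, the heavy ratio was 0.0797 to 0.132 in F1-P and 0.0575 to 0.0726 in F1-L, and the kappa ratio 0.653 to 0.713. The CMP and LSK ratios are over different gene sets. The variable genes themselves were not examined further.

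In CMP the 10 genes together took 0.0134% to 0.211% of the reads. Ighm had a scaled CPM of 276, 714 and 1158 in F1-P and 200.3, 105 and 294 in F1-L. Igkc had 47.2, 223 and 425 in F1-P and 34.4, 18.01 and 63.0 in F1-L. The groups overlapped for both genes through F1-P replicate 1. The log2 difference was −1.73 for Ighm (SE 0.74) and −2.25 for Igkc (SE 1.06), and −2.30 and −3.14 without that library. Without F1-P replicate 3 it was −1.57 for Igkc.

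Jchain, Ighd and Ighg2b did not overlap between the CMP groups, as was so for 16.0% of the 12926 genes tested. None of them passed by limma. Each passed by the likelihood ratio test, where 2.46% of genes passed. Jchain had 15.4, 73.5 and 140.2 in F1-P and 8.18, 3.10 and 14.1 in F1-L, a log2 difference of −2.75 (SE 1.07). Ighd had 3.55, 13.4 and 14.8 in F1-P and 2.46, 1.24 and 2.64 in F1-L, a log2 difference of −1.73 (SE 0.62). Ighg2b had 4.99, 21.2 and 55.1 against 0.818, 1.29 and 2.54, a log2 difference of −3.00 (SE 0.98). In each case F1-P replicate 1 was the F1-P library nearest to F1-L. Without it the log2 difference was −3.63 for Jchain, −2.31 for Ighd and −3.85 for Ighg2b, and without F1-P replicate 3 it was −2.08 for Jchain and −2.24 for Ighg2b.

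The other members overlapped in CMP. Igha had 10.6, 80.9 and 132 in F1-P and 10.3, 1.91 and 11.99 in F1-L, and Ighg3 had 0.0960, 7.77 and 37.2 against 2.27, 6.61 and 17.1. Ighg1 had no read among the 21355004 of F1-P replicate 1, which allows up to 3 reads, and 8.52 and 19.2 in the other F1-P libraries against 0.0909, 0.568 and 8.11 in F1-L. Ighg2c had 3.03, 6.31 and 50.3 against 2.68, 1.14 and 7.31, and Iglc2 1.49, 5.91 and 14.1 against 0.318, 0.103 and 2.99.

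The isotype shares of CMP did not separate the groups for Ighm. Ighm held 93.6%, 87.0% and 81.6% of the heavy-chain signal in F1-P and 92.6%, 90.9% and 87.5% in F1-L, all below the NZBW/F1 LSK range. Ighg2b held 1.19%, 1.82% and 2.74% in F1-P and 0.267%, 0.788% and 0.533% in F1-L, without overlap. Ighg3 held 0.789%, 4.30% and 3.83% in F1-L and 0.0245%, 0.711% and 1.97% in F1-P, with overlap. These shares rest on as few as 2277 heavy-chain reads, in F1-L replicate 2, where Ighm had 89.2% of the reads (exact 95% interval 87.8 to 90.4).

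The gene lists that follow hold no member. They were chosen with earlier results of these data known, and their genes were tested by limma across all genes. Of all 14380 genes tested in F1-P against B6-Y, 1442 rose and 889 fell. Of all 14381 in F1-L against B6-O, 1128 rose and 539 fell. Of 12 plasma cell identity genes, 11 rose in F1-P against B6-Y and 11 in F1-L against B6-O, and none fell, with median log2 differences of 2.94 and 3.05 beside −0.04 and −0.03 for all genes. Prdm1, which encodes the transcription factor Blimp-1 of plasma cells, had a mean scaled CPM of 132 ± 66.9 in F1-P and 9.96 ± 5.08 in B6-Y (SD, n = 3; log2 difference 3.57, SE 0.48, limma adjusted p = 0.00235). In F1-L it had 74.8 ± 19.6 against 5.24 ± 3.26 in B6-O (3.69, SE 0.38, limma adjusted p = 0.00149). Xbp1, a transcription factor of the secretory programme, rose by a log2 difference of 3.25 in F1-P against B6-Y (limma adjusted p = 0.00186), and Irf4 and Pou2af1 by 3.63 (limma adjusted p = 0.00938) and 4.26 (limma adjusted p = 0.00816) in F1-L against B6-O. The genes that did not pass were Cd28 in the first comparison (0.76) and Tnfrsf17, the receptor BCMA, in the second (2.92). The first count was 10 to 12 with any library left out. The second was 12 without B6-O replicate 3, 9 without B6-O replicate 2 and 7 without B6-O replicate 1, and 8, 6 and 6 without F1-L replicate 1, 2 and 3.

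**Figure D4:**
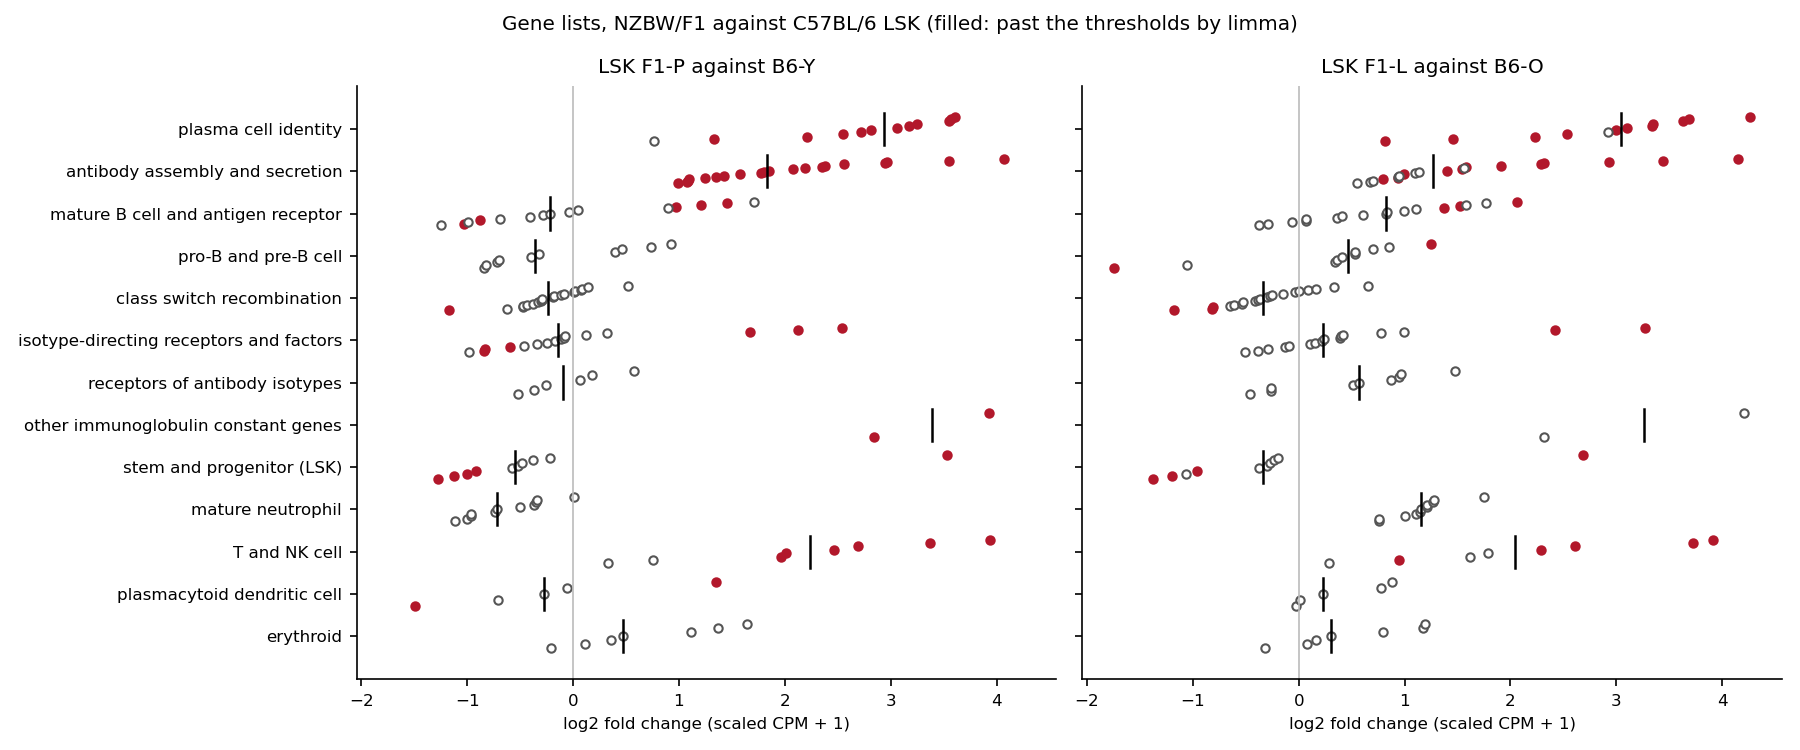
Each point is a gene of a list, placed at its log2 fold change on the scaled CPM + 1 scale for F1-P against B6-Y (left) and F1-L against B6-O (right); filled points passed the thresholds by limma, open points did not, and the black bar is the list's median. Plasma cell genes (medians 2.94 and 3.05) and antibody secretion genes (1.83 and 1.27) lie to the right of 0 in both panels.

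Of 20 genes of antibody assembly and secretion, all 20 rose in F1-P against B6-Y, with a median log2 difference of 1.83, and 12 rose in F1-L against B6-O, with a median of 1.27. Derl3, which takes part in clearing misfolded proteins from the endoplasmic reticulum, had 283 ± 142 in F1-P and 15.6 ± 7.20 in B6-Y (log2 difference 4.07, SE 0.47, limma adjusted p = 0.00117). Mzb1, a chaperone of IgM assembly, had 379 ± 155 and 45.0 ± 7.63 (2.96, SE 0.32, limma adjusted p = 0.000857). Txndc5, a disulphide isomerase, rose in F1-L against B6-O by 2.93 (SE 0.45, limma adjusted p = 0.00704). The second count depended on the libraries: it was 20 without B6-O replicate 3, 5 and 6 without B6-O replicates 1 and 2, and 4, 7 and 4 without F1-L replicates 1, 2 and 3, while the first was 17 to 20.

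Genes of B cells before the plasma cell stage did not move together. Of the genes of mature B cells and the antigen receptor, 3 of 15 tested rose and 2 fell in F1-P against B6-Y, and 3 of 17 rose in F1-L against B6-O. Cd79a, a signalling chain of the B cell receptor that plasma cells can keep, rose from 52.4 ± 15.1 in B6-Y to 121 ± 24.3 in F1-P (limma adjusted p = 0.0105), and Tnfrsf13c, the receptor for BAFF, from 17.4 ± 1.75 to 50.3 ± 12.1 (limma adjusted p = 0.0023). Spib, a transcription factor of B cells and plasmacytoid dendritic cells, fell from 35.3 ± 13.8 to 16.2 ± 3.42 (limma adjusted p = 0.0427). The median log2 difference of the list was −0.22 and 0.82. With libraries left out in turn, 2 to 4 and 0 to 6 of its genes rose. Of 10 pro-B and pre-B cell genes none passed in the first comparison, and in the second Blnk rose (limma adjusted p = 0.00661) and Dntt fell (limma adjusted p = 0.00246).

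Of 21 genes of the class switch machinery 20 were tested. Of these, 1 fell in F1-P against B6-Y, beside 889 of all 14380 genes. In F1-L against B6-O 3 fell, beside 539 of all 14381 genes, and none rose in either comparison. Xrcc6, which encodes the Ku70 subunit of the end-joining complex, was 68.9 ± 12.3 in F1-P and 155 ± 12.6 in B6-Y (limma adjusted p = 0.00205), and 55.6 ± 4.004 in F1-L and 127 ± 7.80 in B6-O (limma adjusted p = 0.0013). Apex1, of base excision repair, was 16.5 ± 1.37 in F1-L and 30.0 ± 3.35 in B6-O (limma adjusted p = 0.0175). Both genes also serve DNA repair outside class switching.

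Of 16 receptors and factors that direct the choice of isotype, 3 rose and 3 fell in F1-P against B6-Y and 2 rose in F1-L against B6-O. Tbx21, the transcription factor T-bet, which favours IgG2a/c in B cells and is also made by T and NK cells, was 22.4 ± 4.68 in F1-P and 3.14 ± 1.56 in B6-Y (log2 difference 2.54, SE 0.29, limma adjusted p = 0.00107). It was 20.6 ± 11.4 in F1-L and 3.08 ± 2.24 in B6-O (2.42, SE 0.48, limma adjusted p = 0.0203). Il5ra, the receptor chain for interleukin 5, was 25.5 ± 5.51 in F1-L and 2.03 ± 1.84 in B6-O (3.27, SE 0.41, limma adjusted p = 0.00316). Of the 10 receptors of antibody isotypes, none of the 6 and 9 tested passed in these comparisons. Iglc1 and Iglc3, the tested constant genes outside the 10, both rose in F1-P against B6-Y (log2 differences 3.93 and 2.85) and had 4.21 and 2.32 in F1-L against B6-O without passing (limma adjusted p = 0.0837 and 0.0608).

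Markers of other cells moved with the strain beside these results. Of 8 T and NK cell markers 6 rose in F1-P against B6-Y and 5 in F1-L against B6-O, with summed levels of 157 to 225 in F1-P and 137 to 304 in F1-L against 19.5 to 38.3 in B6-Y and 14.8 to 41.4 in B6-O. No marker of the list was at 0 in all samples of a group. Of 10 LSK markers Ly6a, which encodes the sort marker Sca-1, rose in both comparisons, with 705 ± 297 in F1-P against 59.4 ± 27.0 in B6-Y (limma adjusted p = 0.00121), and Cd34, Meis1 and Hlf fell in both. Kit, the other sort marker, was 257 to 373 in F1-P and 410 to 481 in B6-Y. Of the mature neutrophil and erythroid markers none passed in these comparisons, and of 5 plasmacytoid dendritic cell markers tested 1 rose and 1 fell in F1-P against B6-Y. In the separately scaled CMP libraries Ly6a was 1.14 to 6.70. The part of these markers in the immunoglobulin levels was not tested.

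By limma no list gene passed in F1-L against F1-P, in B6-O against B6-Y or in CMP, where 4, 0 and 1 of all genes passed and 1830, 927 and 1267 had an unadjusted p under 0.05. The median log2 difference of the plasma cell identity genes was −0.76 in F1-L against F1-P and −0.88 in B6-O against B6-Y, beside −0.01 and 0.02 for all genes. The likelihood ratio test placed 4.60% of all genes past the thresholds in LSK F1-L against F1-P and 2.46% in CMP. By this test the 11 mature neutrophil markers were all higher in LSK F1-L than in F1-P and all lower in CMP F1-L than in F1-P. In LSK F1-L, 4 of 10 pro-B and pre-B cell genes were lower. Summed neutrophil markers were 301 to 1281 in F1-P and 1983 to 12373 in F1-L in LSK, and 315 to 8442 and 64.2 to 431 in CMP. In CMP 11 of 13 tested genes of mature B cells were lower in F1-L by the same test. That list summed to 142, 397 and 460 in CMP F1-P replicates 1, 2 and 3 and to 85.2 to 135 in CMP F1-L. Prdm1 in CMP was at most 1.92 in any library. The part of these cells in the CMP and LSK differences of the 10 genes was not tested.

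**Figure D5:**
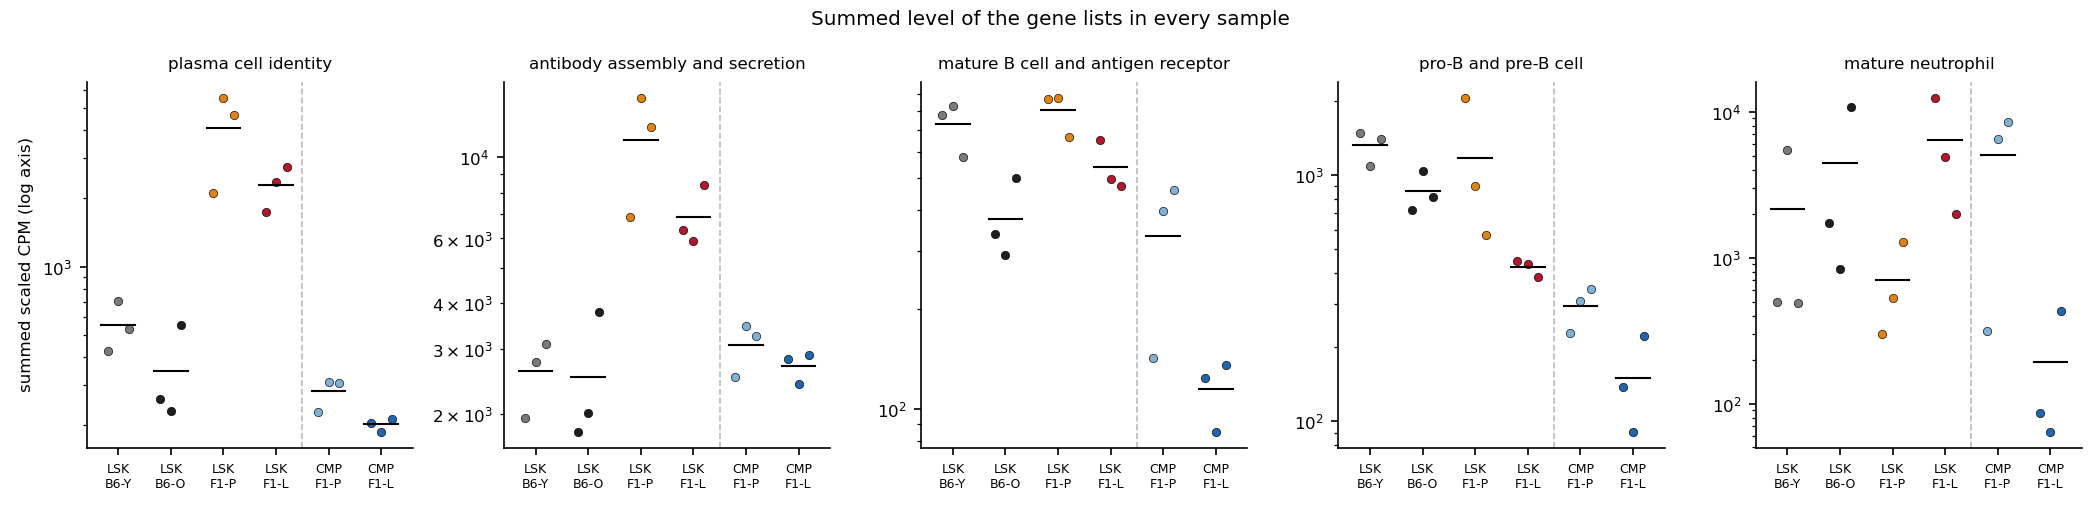
Summed scaled CPM of 5 gene lists in every sample on log axes, with 1 point per sample and a bar at the group mean; the dashed line separates the separately scaled LSK and CMP tables. Plasma cell identity genes sum to 1747 to 5536 in NZBW/F1 LSK and 231 to 704 in C57BL/6 LSK, while the mature B cell genes overlap between the strains.

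The genes outside the immunoglobulin loci whose log2 level was most like that of a member were ranked by Pearson correlation over the 12 LSK libraries, among genes with a mean scaled CPM of at least 5. As the strains form separate clusters, the correlation is given within each strain, over 6 libraries, as a description without a p. For Ighm the 5 genes were Ly6c2, Jchain, Derl3, Cacna1h and Wnt10a, with r of 0.90 to 0.97 within NZBW/F1 and 0.96 to 1.00 within C57BL/6. Ly6c2, which encodes the surface antigen Ly6C, ran from 234 to 663 in NZBW/F1 and from 15.7 to 122 in C57BL/6. For Igkc they were Ly6c2, Jchain, Cd74, Chst1 and Derl3, and for Jchain they were Fcrla, Ly6c2, Chst1, Eaf2 and Mzb1.

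For Ighg2c none of these genes was among the first 5, which were Gnptg, Slc50a1, Gpr137, Atp6v0b and Trmu, with r of 0.72 to 0.90 within NZBW/F1 and 0.93 to 0.98 within C57BL/6. Their ranges overlapped between the strains, as with Gnptg at 24.4 to 33.7 in NZBW/F1 and 19.6 to 35.2 in C57BL/6. Among the members, Ighg2b and Ighg2c had r of 0.99 within NZBW/F1 and 0.94 within C57BL/6. Ighm and Ighg3 had r of 0.19 within NZBW/F1 and 0.86 within C57BL/6, and Ighm and Ighd −0.08 and 0.67.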

How the data were processed

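RNA of sorted LSK (12 samples) and CMP (6 samples) was sequenced by the authors as 75-base single reads, aligned with STAR 2.6 to mm10 (GRCm38) and counted with HTSeq. The annotation release and the strand setting are not given in the sources used here. The deposited values are a signal: CPM, read counts over a library size scaled with edgeR, separately for each table. They are whole multiples of a step per sample (100% within 0.1 step), so whole reads were recovered. Symbols matched GENCODE M21 for 19770 LSK and 18421 CMP genes. The genes, lists and tests were chosen with earlier results of these data known.

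limma 3.58.1 in R 4.3.3, with a trend, was run on log2(value + 1) for genes of at least 1 in at least 3 samples, on the 2 groups compared, with Benjamini-Hochberg adjustment over all genes. Thresholds were the study's. Alternatives were other pseudocounts, filters, scalings and lengths, a replicate block, edgeR 4.0.16 (quasi-likelihood and likelihood ratio), DESeq2 1.42.0 and leaving out each replicate. Fits were also run on simulated data, and the outcome is not reported here. Shares and ratios used Python 3.11.15, over the union of annotated exons. Named were all 10 genes, up to 4 genes per list and comparison, by the largest change among those past the thresholds, otherwise by unadjusted p, and the 5 genes most like Ighm, Ighg2c, Igkc and Jchain. Kit, Prdm1 in CMP, and Cd28 and Tnfrsf17 where they did not pass, were named after their values were seen. Some genes of the lists are counted but not reported here by name. No samples of a group were near-identical. Precision for rare genes in CMP, with down to 0 reads, is limited by depth.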

Additional observations from a re-analysis of the deposited data

How the results depend on the processing

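Counts of genes past the thresholds varied with the tool. For LSK F1-L against F1-P the 4 genes became 659 with the edgeR likelihood ratio test, 734 with DESeq2, 26 with all LSK samples in one fit, 2 without a trend (chosen after seeing the data) and 0 with the replicate block. For B6-O against B6-Y the count of 0 became 115, 207, 15, 3 and, with median of ratios scaling, 1. For CMP the count of 1 became 318 with the likelihood ratio test, 351 with DESeq2 and 0 with the replicate block. Leaving out 1 replicate gave 0 to 25, 0 to 48 and 0 to 434 for these comparisons, 448 to 2285 for F1-L against B6-O and 927 to 2229 for F1-P against B6-Y. The 25, 48, 434, 448 and 927 were without F1-P replicate 3, B6-O replicate 3, CMP F1-P replicate 1, F1-L replicate 3 and F1-P replicate 2. The cause was not tested. Samples with the same replicate number did not deviate together in every pair (correlations of −0.454 to 0.622), so the numbers were not taken as pairs. The block gave 1380 genes for F1-L against B6-O and 2787 for F1-P against B6-Y, against 1667 and 2331.

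No log2 difference of a called member or named list gene reversed, and Iglc2 in CMP became −3.00 with a pseudocount of 0.1. With 3 samples, leaving 1 out cannot move a mean by its SD, so the log2 differences without single libraries stand beside those they move. Of the values of list genes 3430 stayed on their side of the thresholds, 155 passed and 102 no longer passed.

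With the shortest annotated transcript as length (chosen after seeing the data), the Ighm share was 98.5% in F1-P, 98.1% in F1-L, 88.5% in B6-Y and 74.2% in B6-O, and 80.4% and 84.8% in CMP F1-P and F1-L. Without length the Ighg2c share was 0.140% in F1-P and 5.83% in B6-O. Per kb, Ighg2c plus Ighg2b came to 0.308%, 3.78% and 13.8% in F1-P, B6-Y and B6-O. Without length, light per heavy chain was 0.429, 0.416 and 0.457 in the LSK groups F1-P, B6-Y, B6-O, 0.422 in F1-L and 0.255 and 0.171 in CMP F1-P and F1-L, and Jchain per 100 of Ighm plus Igha was 12.6 in F1-P, 7.88 in F1-L, 12.8 in B6-Y, 11.6 in B6-O and 3.80 in CMP F1-L, by construction. With 1 replicate left out, the Ighg2c share ran from 1.28% to 3.25% in CMP F1-P, lowest without replicate 3.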
